A study of Mus musculus with 2 samples.

Results

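The genes described here are 10 that mark the adipo-primed reticular stroma of bone marrow: Lepr, Adipoq, Ebf1, Ebf2, Ebf3, Foxc1, Prrx1, Cebpa, Cebpd and Lpl. They were chosen by name, by a rule that uses no measured value but was set with earlier results of these data known, and each had 1 row of its own among the 31636 single-gene rows of the expression table. Values are FPKM, fragments scaled by transcript length and by sequencing depth. The 2 libraries were made from sorted marrow cells of adult C57BL/6 mice, selected for GFP under nestin regulatory sequence and against CD45, CD31 and Ter119, which mark blood, endothelial and erythroid cells. The JAK2 V617F library came from Nes-gfp;Mx1-cre;JAK2-V617F mice, in which Cre recombinase under the interferon-responsive Mx1 promoter switches on a kinase mutation that drives myeloproliferative disease. Control cells came from littermates with Nes-gfp, for which neither Mx1-cre nor JAK2-V617F is listed, so Cre and the mutation cannot be told apart. Mx1-cre recombines in blood cells and in other cells that respond to interferon, and the labels do not say which of the sorted cells carried the mutation. Mice of both genotypes received pIpC, a double-stranded RNA analogue that induces interferon, and marrow was taken 6 weeks later. Cells of 3 animals were pooled per library, with a single library for each genotype (n = 1), so no value has a replicate error and no p-value is given. Despite the sort, blood and erythroid transcripts were present in both libraries. Mpo was at 663 FPKM in JAK2 V617F and 577 FPKM in control, and Slc4a1 at 195 and 380 FPKM in that order. In such bulk samples, fewer cells of a type and less RNA per cell cannot be told apart.

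Reticular stromal cells wrap the sinusoids of the marrow and supply haematopoietic stem cells with chemokine and growth factors. A large share of them express the leptin receptor together with adipocyte-lineage genes such as adiponectin and lipoprotein lipase, without storing fat. Transcription factors of the EBF, forkhead and C/EBP families act in this state: in mice, Foxc1, Ebf1 and Ebf3 maintain the reticular cell, while C/EBP factors act early in adipocyte differentiation and also in myeloid cells.

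All 10 genes were above 1 FPKM in both libraries, and 9 of the 10 differed by less than 2-fold between them. The exception was Cebpd, a C/EBP factor that acts early in adipogenesis, at 18.5 FPKM in the JAK2 V617F library and 6.86 FPKM in the control library. A gene was called higher or lower where log2((JAK2 V617F FPKM + 1)/(control FPKM + 1)) was at least 1 or at most -1, a scale that understates the change of low genes. By this rule 1 member was higher and 0 were lower, where 10% of the 12496 protein-coding genes at 1 FPKM or more were higher and 8.71% were lower. The count of 1 in 10 higher is the share found over all genes. The median log2 ratio of the 10 was -0.13, against -0.04 over all tested protein-coding genes. Over all those genes 1253 were called higher and 1089 lower, and 1603 higher and 844 lower once the JAK2 V617F values were rescaled to the FPKM sum of the control, which moved the median of all genes to 0.12.

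**Figure D1:**
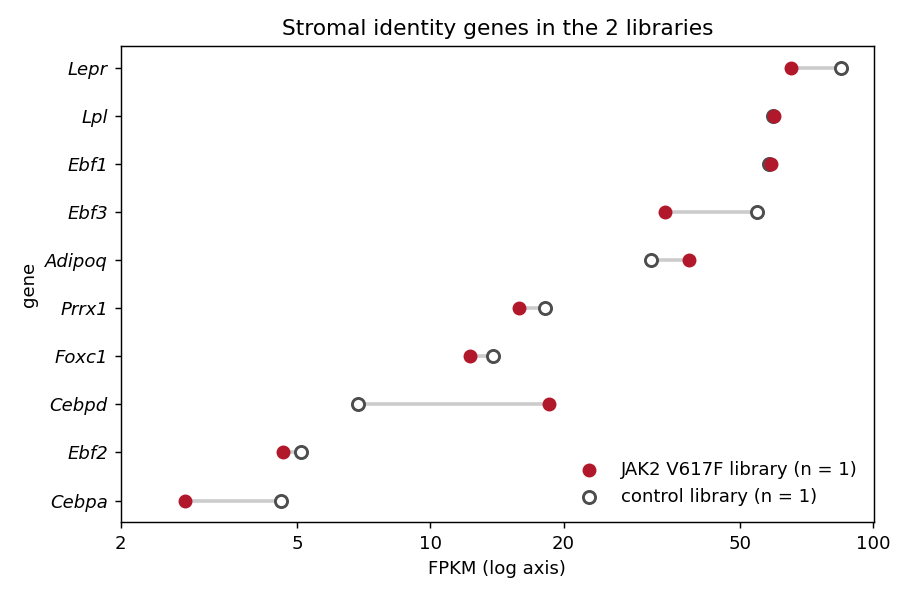
FPKM of each of the 10 genes (log axis) in the JAK2 V617F library (filled points) and the control library (open points), 1 library each, with no error bars because there are no replicates. Cebpd shows the widest gap, 18.5 and 6.86 FPKM, while the points of Lpl and Ebf1 lie on top of each other.

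Lepr, the leptin receptor, a cytokine receptor that signals through JAK2, was the highest of the 10 genes in both libraries. It was at 65.4 FPKM in the JAK2 V617F library and 84.8 FPKM in the control library, a log2 ratio of -0.37. These levels lay above 93.8% of the 20286 protein-coding genes in the JAK2 V617F library and above 95% in the control library. The gene has 19 exons in its longest coding transcript and lies at chr4:101717404-101815352 on the plus strand (GRCm38). The 3 protein-coding genes nearest to it in the plane of the 2 libraries' log2(FPKM + 1) values were Ctsa (65.9 FPKM in JAK2 V617F, 85.3 FPKM in control), Ctgf (66.4 and 83.7 FPKM, in the same order) and Runx2 (64.6 and 86.3 FPKM). With 2 libraries such closeness is common, and 27 genes lay within 0.1 log2 units of Lepr.

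Adipoq encodes adiponectin, a hormone of adipocytes that reticular cells also transcribe. It was at 38.5 FPKM in the JAK2 V617F library and 31.4 FPKM in the control library (log2 ratio 0.28). It lies at chr16:23146536-23158028 on the plus strand and has 3 exons. Lpl encodes lipoprotein lipase, which releases fatty acids from circulating triglyceride. It was at 59.8 FPKM in the JAK2 V617F library and 59.6 FPKM in the control library, a log2 ratio of 0.01, and lies at chr8:68880491-68907448 on the plus strand. Because Adipoq was the higher and Lepr the lower in the JAK2 V617F library, the Adipoq to Lepr ratio, which needs no scaling between libraries, was 0.589 there and 0.371 in the control library. Krr1, Cyb5r4 and Ube2j2 were the 3 genes nearest to Adipoq over the 2 libraries, and 39 genes lay within 0.1 log2 units of it.

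Markers of mature adipocytes ranged widely beside this Adipoq level. Of 16 such markers, the lipid droplet gene Cidec, the serine protease adipsin (Cfd) and the gluconeogenic enzyme gene Pck1 were listed at 0 in both libraries. Plin1, which coats the fat droplet, was at 0.122 FPKM in the JAK2 V617F library and listed at 0 in the control library. Of the 9 that reached 1 FPKM in a library, 2 were called higher and 1 lower, against 10% and 8.71% of all tested protein-coding genes. Their median log2 ratio was 0.14. The higher ones, Gpd1 at 1.90 FPKM and Cidea at 1.09 FPKM in the JAK2 V617F library, were listed at 0 in the control library. The lower one was Lep, the gene of leptin, at 0.0528 FPKM in the JAK2 V617F library and 1.71 FPKM in the control library. The most abundant was Scd1, a fatty acid desaturase, at 36.9 FPKM in JAK2 V617F and 35.7 FPKM in control. The triglyceride lipase gene Pnpla2 was at 21.4 FPKM in JAK2 V617F and 18.0 FPKM in control, the glucose transporter gene Slc2a4 at 10.7 and 6.36 FPKM, and the hormone-sensitive lipase gene Lipe at 6.35 and 6.33 FPKM, each in that order. Fabp4, a fatty acid carrier also made by endothelium and macrophages, was at 8.03 FPKM in JAK2 V617F and 7.17 FPKM in control.

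Reticular cell transcripts were present throughout: of a separate list of 24 reticular cell genes, 24 were at 1 FPKM or more in both libraries. None was called higher and 1 was called lower, where the background was 10% and 8.71%, and their median log2 ratio was -0.13. The lower gene was Agt, which encodes angiotensinogen, at 12.7 FPKM in the JAK2 V617F library and 29.0 FPKM in the control library. The count lower was 0 with a pseudocount of 5 or with both libraries at the same FPKM sum, where the median was 0.041, and 2 with a pseudocount of 0.1. By the mean of both libraries the most abundant were the chemokine gene Cxcl12 (694 FPKM in JAK2 V617F, 891 FPKM in control), Igfbp5 (231 and 275 FPKM, in the same order), Tmem176b (136 and 223 FPKM) and Apoe (146 and 150 FPKM).

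The EBF factors differed in level and in how far apart the libraries were. Ebf1, required for B-lineage commitment and expressed in reticular stroma, was at 58.7 FPKM in the JAK2 V617F library and 58.3 FPKM in the control library (log2 ratio 0.01). Ebf3, its relative in marrow stroma, was at 34.0 FPKM in the JAK2 V617F library and 54.7 FPKM in the control library. This log2 ratio of -0.67 was within 2-fold. Ebf2, which is known from brown fat and osteoblast progenitors, was at 4.65 FPKM in the JAK2 V617F library and 5.11 FPKM in the control library (log2 ratio -0.11). The fourth family member, Ebf4, stayed below 1 FPKM, at 0.589 FPKM in JAK2 V617F and 0.681 FPKM in control.

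Within each library, Ebf1 made up 60.3% of the summed FPKM of Ebf1, Ebf2 and Ebf3 in the JAK2 V617F library and 49.4% in the control library. Ebf3 made up 34.9% in the JAK2 V617F library and 46.3% in the control library. The Ebf2 share was 4.78% in the JAK2 V617F library and 4.33% in the control library. The Ebf1 to Ebf3 ratio was 1.73 in the JAK2 V617F library and 1.07 in the control library, where they were close to equal. These shares do not depend on how the libraries were scaled to each other, but they have no replicate.

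**Figure D2:**
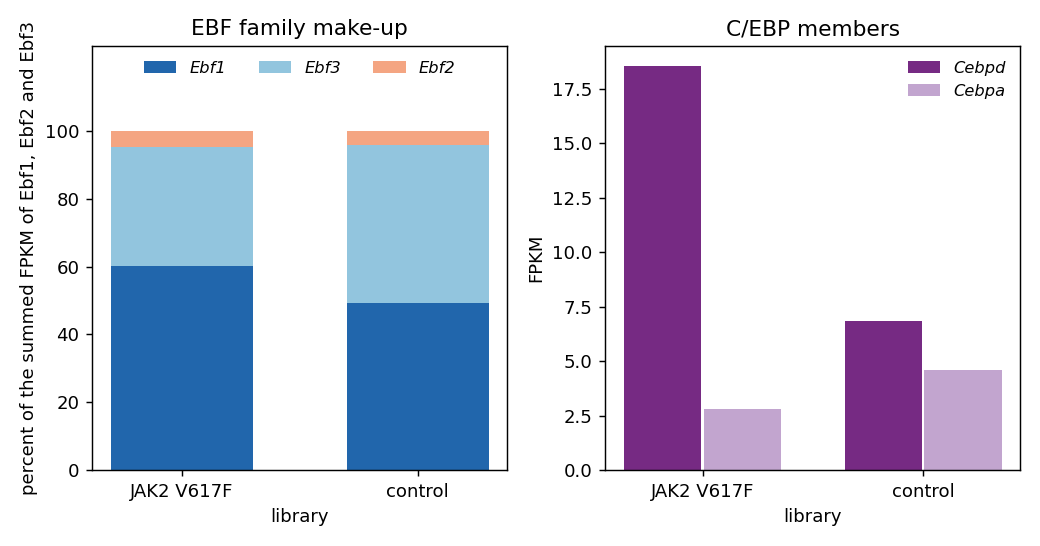
Left, percent of the summed FPKM of 3 EBF genes held by each in the JAK2 V617F and control libraries. Right, FPKM of Cebpd and Cebpa in the same 2 libraries (n = 1 each, no error bars). Ebf1 holds 60.3% in JAK2 V617F and 49.4% in control, and Cebpd stands above Cebpa in both.

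Because these are paralogs, their transcripts were compared to see whether fragments of one could be counted for another. The 60 bases shown are the stretch of coding sequence, inside 1 exon of each gene, in which the 3 genes are most alike. Capitals mark the 9 positions at which they are not all the same, and 51 are shared by all 3. The stretch lies in exon 2 of Ebf1 (chr11:44620467-44620526, plus strand), exon 3 of Ebf2 (chr14:67237502-67237561, plus strand) and exon 2 of Ebf3 (chr7:137313562-137313621, minus strand), all GRCm38, from GENCODE vM21 transcripts written 5′ to 3′.
Ebf1: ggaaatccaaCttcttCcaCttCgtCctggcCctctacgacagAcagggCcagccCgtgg
Ebf2: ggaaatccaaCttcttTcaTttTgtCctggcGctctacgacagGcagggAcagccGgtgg
Ebf3: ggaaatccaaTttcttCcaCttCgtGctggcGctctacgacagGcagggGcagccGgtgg
Even here, Ebf2 differed from Ebf1 at 7 bases, Ebf3 from Ebf1 at 6 and Ebf2 from Ebf3 at 6. In this comparison 1 transcript stood for each gene. Of the 3387 stretches of 36 bases in that of Ebf1, 0 occurred in that of Ebf2 or Ebf3, and 0 of the 5169 of Ebf2 occurred in Ebf3. For Ebf1 and Ebf3 these were shorter than the longest coding transcripts, of 5981 and 4994 bases. Reads with mismatches could still cross, and for the mismatch settings of the alignment no value is given in the sources at hand. The Ebf1 locus spans chr11:44617317-45008091 and the Ebf3 locus chr7:137193673-137314445.

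B-lineage transcripts were present in both pools and are given here because B cells also express Ebf1. The summed FPKM of the 9 measured B-lineage markers was 119 in the JAK2 V617F library and 127 in the control library. Cd79a was at 21.4 FPKM in JAK2 V617F and 23.4 FPKM in control, and Pax5 at 15.6 and 12.7 FPKM in the same order. Of the 9, 2 were called higher (Ms4a1 and Cd22) and 1 lower (Vpreb1), where the background was 10% and 8.71%. Their part in the Ebf1 level was not tested.

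Foxc1, the forkhead factor that maintains reticular cells in mice, was at 12.3 FPKM in the JAK2 V617F library and 13.8 FPKM in the control library (log2 ratio -0.16). Its row covers chr13:31806646-31810635, plus strand, taken here as a single exon. The steps in the lowest FPKM values of each library allow fragments to be estimated for such a gene. Foxc1 then had about 291 fragments in the JAK2 V617F library (exact Poisson 95% interval 259 to 326) and about 280 in the control library (248 to 315). The FPKM ratio of 0.890 had an exact (Clopper-Pearson) 95% interval of 0.751 to 1.05, which holds 1. Such intervals rest on estimated fragments and reflect counting error alone. Amplified copies count among these fragments, so the intervals can be too narrow. Foxc2, its paralog, was at 1.47 FPKM in JAK2 V617F and 2.16 FPKM in control.

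Prrx1, a homeobox factor of limb and marrow mesenchyme, was at 15.9 FPKM in the JAK2 V617F library and 18.2 FPKM in the control library (log2 ratio -0.19). Its row covers chr1:163245116-163313710 on the minus strand. The paralog Prrx2 was at 1.67 FPKM in the JAK2 V617F library and listed at 0 in the control library. The 10 genes fell in nearly the same order of level in both libraries, with Lepr, Lpl and Ebf1 leading and Ebf2 and Cebpa last. In the JAK2 V617F library Adipoq stood above Ebf3, and Cebpd above Prrx1 and Foxc1; in the control library both stood below. Neighbours in that order, such as Lpl and Ebf1 (59.8 and 58.7 FPKM with JAK2 V617F, 59.6 and 58.3 FPKM in the control library), cannot be ranked without replicates.

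**Figure D3:**
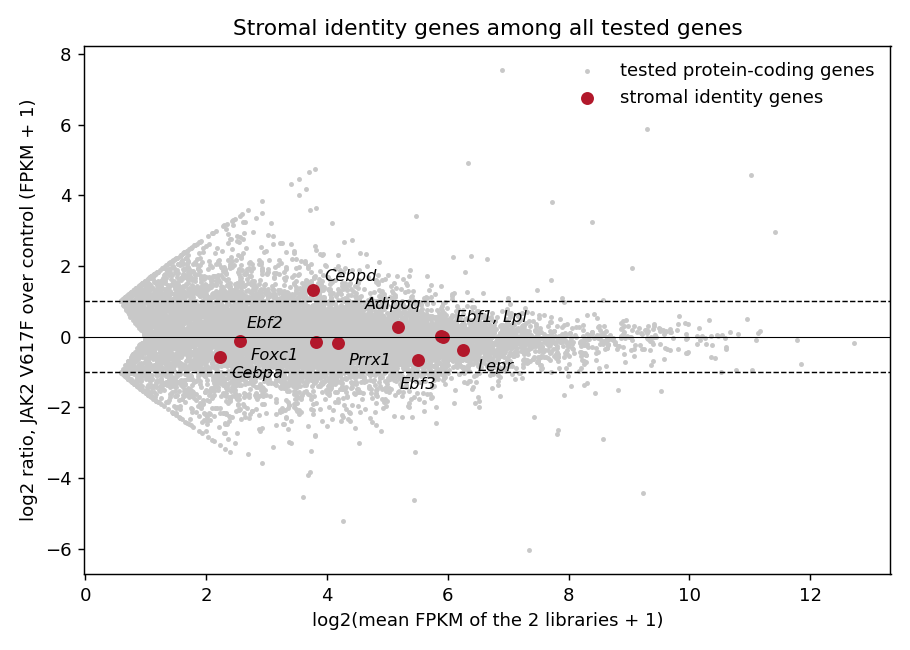
Log2 ratio of JAK2 V617F over control (on FPKM + 1) against the log2 of the mean FPKM of the 2 libraries, for 12496 tested protein-coding genes (grey) and the 10 stromal identity genes (red). Dashed lines mark 2-fold, and Cebpd, at 1.31, is the 1 red point outside them.

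The C/EBP members lay on opposite sides of 0. Cebpd was at 18.5 FPKM in the JAK2 V617F library and 6.86 FPKM in the control library, a log2 ratio of 1.31. Its row covers 1181 bases at chr16:15887286-15888466 on the plus strand, where GENCODE vM21 carries the gene on to position 15891031, so the rest of the later annotation was not part of this locus. With the row taken as 1 exon, about 117 fragments (exact Poisson 95% interval 96.8 to 140) lay behind the JAK2 V617F value and about 37 (26.1 to 51.0) behind the control value. The FPKM ratio was 2.70 with an exact 95% counting interval of 1.85 to 4.03. Over all tested protein-coding genes, 5.46% had a log2 ratio as high or higher. Among the 4580 protein-coding genes with a mean FPKM within 2-fold of that of Cebpd, a range chosen after its value was seen, 6.68% were called higher.

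Cebpa, which acts with Pparg in adipocyte differentiation and drives granulocyte development, was the lowest of the 10 genes. It was at 2.80 FPKM in the JAK2 V617F library and 4.61 FPKM in the control library (log2 ratio -0.56, within 2-fold), at chr7:35119293-35121926 on the plus strand. On the same assumption, about 43 fragments (31.1 to 57.9) lay behind the JAK2 V617F value and about 60 (45.8 to 77.2) behind the control value. The FPKM ratio of 0.608 had a counting interval of 0.404 to 0.922. On the deposited scale it leaves out 1, but it takes no account of differences between animals, of amplified copies or of scaling between the libraries. The Cebpd to Cebpa ratio within a library was 6.61 in the JAK2 V617F library and 1.49 in the control library.

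All 45 pairwise FPKM ratios among the 10 genes were compared between the libraries, a measure that needs no scaling. The ratio differed by at least 2-fold for 10 pairs, and 9 of these were the 9 pairs that hold Cebpd. The remaining pair was Adipoq and Cebpa, with an Adipoq to Cebpa ratio of 13.7 in the JAK2 V617F library and 6.82 in the control library. For the other 35 pairs the ratio differed by less than 2-fold. The pair ratios restate the values of the single genes, so they are no separate support for a difference of Cebpd.

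Myeloid transcripts are given beside the C/EBP genes because myeloid cells express both. Neutrophil-lineage markers summed to 2555 FPKM in the JAK2 V617F library and 2459 FPKM in the control library. Of the 10, 0 were called higher and 3 lower, where the background was 10% and 8.71%. Those 3 were Ngp (182 FPKM in JAK2 V617F, 450 FPKM in control), Camp (37.8 and 84.2 FPKM, in the same order) and Ltf (9.01 and 24.1 FPKM). The log2 ratio was above 0 for 6 of the 10, such as Elane (549 FPKM in JAK2 V617F, 402 FPKM in control). Macrophage markers summed to 33.6 FPKM in the JAK2 V617F library and 9.88 FPKM in the control library. Of the 6 that reached 1 FPKM, 5 were called higher and 0 lower, where the background was 10% and 8.71%. Those 5 were Cd68 (13.2 FPKM in JAK2 V617F, 3.14 FPKM in control), Csf1r, the receptor of a macrophage growth factor (7.41 and 2.49 FPKM, in the same order), the complement genes C1qb (4.198 and 0.233 FPKM) and C1qc (3.75 and 0.869 FPKM), and Cd14 (3.05 FPKM in JAK2 V617F, listed at 0 in control). C1qb, C1qc and Cd14 reached 1 FPKM in the JAK2 V617F library alone, so they entered the count through the library where they were higher. Cd163 was at 1.71 FPKM in JAK2 V617F and 2.63 FPKM in control. C1qa and Marco were listed at 0 in both libraries, and Emr1, the gene of F4/80, and Mrc1 were below 1 FPKM in both. Pericyte and smooth muscle markers summed to 340 FPKM in the JAK2 V617F library and 174 FPKM in the control library. Of the 9 tested, 5 were called higher and 0 lower, where the background was 10% and 8.71%. Those 5 were Acta2 (43.2 FPKM in JAK2 V617F, 12.2 FPKM in control), Des, Mcam, Kcnj8 and Abcc9. Within 2-fold were Rgs5 (183 and 115 FPKM, in the same order), Cspg4 (12.7 and 8.41 FPKM), Myh11 (8.79 and 5.96 FPKM) and Tagln (4.75 and 5.11 FPKM). Cnn1 was below 1 FPKM in both. The part of these myeloid, pericyte and smooth muscle transcripts in the Cebpd value was not tested.

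**Figure D4:**
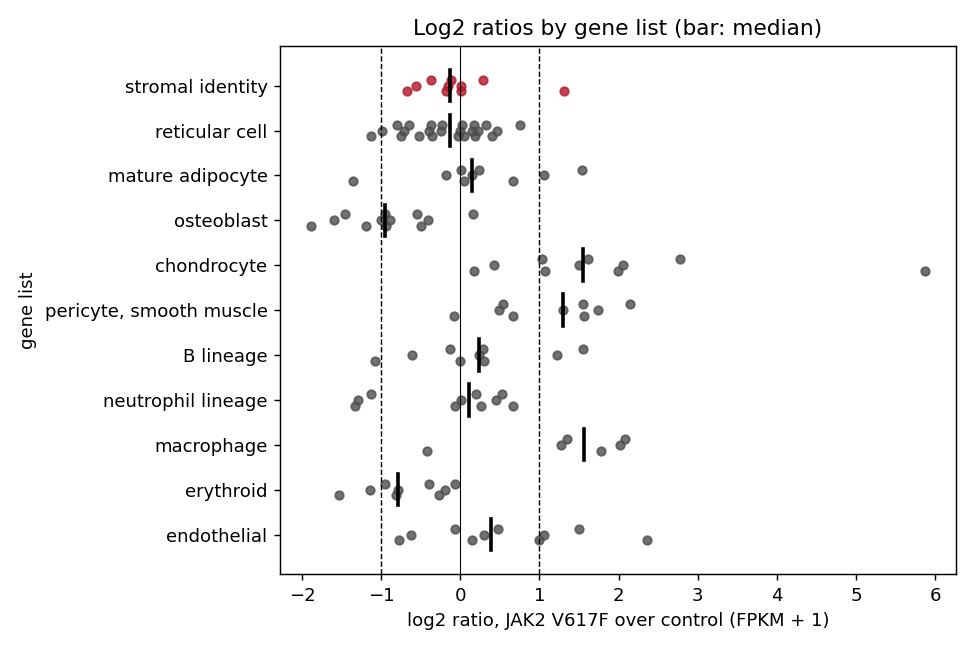
Log2 ratio of JAK2 V617F over control (FPKM + 1) for each tested gene of 11 lists, with the median of each list as a black bar and dashed lines at 2-fold. The stromal identity and reticular lists have medians of -0.13. The osteoblast and erythroid lists lie to the left and the chondrocyte, pericyte and macrophage lists to the right.

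Osteoblast and chondrocyte genes differed more between the pools. Of 12 osteoblast genes 4 were called lower and 0 higher, where the background was 8.71% and 10%. Their summed FPKM was 4184 in the JAK2 V617F library and 8223 in the control library. Of 10 chondrocyte genes 8 were called higher and 0 lower, where the background was 10% and 8.71%. Their sums were 1898 FPKM in the JAK2 V617F library and 343 FPKM in the control library. Prg4 made up most of the JAK2 V617F sum, at 1234 FPKM there and 20.1 FPKM in control. In control the largest was Col2a1, at 178 FPKM, with 238 FPKM in JAK2 V617F. Erythroid markers summed to 1331 FPKM in the JAK2 V617F library and 2530 FPKM in the control library. Of the 9 tested, 0 were called higher and 2 lower, and the log2 ratio was below 0 for all 9. Hbb-b1 was the most abundant, at 379 FPKM in JAK2 V617F and 1096 FPKM in control. Endothelial markers summed to 49.98 FPKM in JAK2 V617F and 37.6 FPKM in control. Of the 10, 3 were called higher (Emcn, Robo4 and Stab2) and 0 lower. For both lists the background was 10% higher and 8.71% lower. These lists move with the libraries, and their part in the values of the 10 genes was not tested.

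Relatives and partners of the transcription factors among the 10 genes gave 3 genes called higher and 0 lower of 9 tested. The background was 10% and 8.71%, and the median of the list was 0.57 on the log2 scale. Pparg, the central adipogenic nuclear receptor, was at 4.78 FPKM in the JAK2 V617F library and 1.33 FPKM in the control library (log2 ratio 1.31). Cebpe, a factor of late granulocyte maturation, was at 5.35 FPKM in the JAK2 V617F library and listed at 0 in the control library, and Prrx2, given above, was the other. Within 2-fold were Cebpg (17.1 FPKM in JAK2 V617F, 17.9 FPKM in control), the preadipocyte factor Zfp423 (11.7 and 13.3 FPKM, in the same order), Zfp521 (3.94 and 4.17 FPKM) and Cebpb (4.73 and 2.84 FPKM). When only its genes at 5 FPKM or more were counted, 1 was called higher and the median was -0.06, and with a pseudocount of 5 the count higher was likewise 1.

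Around the leptin receptor, 1 of 10 signalling genes, Lep, was called lower and 0 higher, where the background was 8.71% and 10%. The list's median log2 ratio was -0.14. With a pseudocount of 5, or under a filter of 5 FPKM, 0 were called lower. The median was 0.038 under that filter and 0.023 with both libraries at the same FPKM sum. Leprot, a transmembrane protein that restrains surface display of the receptor, was at 32.1 FPKM in the JAK2 V617F library and 54.4 FPKM in the control library (-0.74). The phosphatase gene Ptpn11 was at 29.5 FPKM in JAK2 V617F and 45.4 FPKM in control, Stat3 at 23.6 and 30.2 FPKM, and Jak2 at 29.9 and 24.5 FPKM, each in that order. The JAK2 V617F allele has no row of its own, so the Jak2 value does not check the genotype. All 4 were within 2-fold.

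Of 8 genes for adiponectin receptors and adiponectin secretion, 1 was called higher and 0 lower (median log2 ratio 0.06). The background was 10% and 8.71%. The called gene was Gstk1, an enzyme involved in adiponectin assembly, at 5.50 FPKM in the JAK2 V617F library and 0.245 FPKM in the control library. The receptor gene Adipor1 was at 35.8 FPKM in JAK2 V617F and 52.0 FPKM in control, the chaperone gene Erp44 at 36.4 and 35.7 FPKM, the adaptor gene Appl2 at 25.3 and 35.6 FPKM, and Cdh13, which encodes T-cadherin, at 19.5 and 18.3 FPKM, each in that order.

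Of 11 genes that handle lipoprotein lipase or act beside it, 10 had their own row and 8 were tested. Of these 1 was called higher and 1 lower (median log2 ratio 0.0052), where the background was 10% and 8.71%. With a pseudocount of 5, or under a filter of 5 FPKM, 0 were called in either direction. Gpihbp1, which carries the enzyme across capillary endothelium, was at 1.77 FPKM in the JAK2 V617F library and listed at 0 in the control library. Lipc, hepatic lipase, was at 1.49 FPKM in JAK2 V617F and 4.42 FPKM in control. The folding partner gene Sel1l was at 42.2 FPKM in JAK2 V617F and 27.4 FPKM in control, the inhibitor gene Angptl4 at 30.0 and 17.0 FPKM, the lysosomal lipase gene Lipa at 16.3 and 25.8 FPKM and the maturation factor gene Lmf1 at 16.3 and 16.6 FPKM, each in that order and within 2-fold.

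RefSeq promoter windows (GRCm38.p6, 250 bases before to 50 after a start site) were matched for 7 of the 10 genes, giving 9 windows. Motifs of the families in the list were searched on both strands, the palindromic EBF site, TTGCNNAA for C/EBP, TGTTTAC for forkhead and TAATTA for homeodomain factors, with TTCNNNGAA for STAT and TATAAA for the TATA box. Among all 32851 windows these letters were found in 0.904%, 10.8%, 3.65%, 5.29%, 8.30% and 13.6%, in that order. In the 9 windows of the members there were 3 matches in all. The windows of Lepr and Prrx1 are printed because each holds the motif of a family in the list, in capitals.
Lepr, second start, chr4:101717656-101717955, plus strand: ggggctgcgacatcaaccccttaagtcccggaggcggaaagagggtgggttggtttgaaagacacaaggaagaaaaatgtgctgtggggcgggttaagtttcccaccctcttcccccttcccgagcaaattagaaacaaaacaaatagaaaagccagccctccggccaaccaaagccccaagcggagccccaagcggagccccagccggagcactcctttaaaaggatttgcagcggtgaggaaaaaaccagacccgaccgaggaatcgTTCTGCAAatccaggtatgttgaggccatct
Prrx1, chr1:163313601-163313900, minus strand: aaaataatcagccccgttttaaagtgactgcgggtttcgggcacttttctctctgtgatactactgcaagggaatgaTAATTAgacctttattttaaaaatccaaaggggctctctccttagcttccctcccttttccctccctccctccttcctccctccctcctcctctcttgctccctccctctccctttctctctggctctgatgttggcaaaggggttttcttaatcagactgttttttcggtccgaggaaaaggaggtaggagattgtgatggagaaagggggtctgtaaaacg
The C/EBP letters in the Lepr window begin 19 bases after its start site and are on the reverse strand. The homeodomain letters in the Prrx1 window begin 173 bases before its start site. The other match, a TATAAA, begins 30 bases before the start of Cebpa. The windows of Adipoq, Ebf1, Ebf3 and Foxc1 and the first Lepr window held none of the 6 motifs, which says only that these letters are not in these 300 bases.

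**Figure D5:**
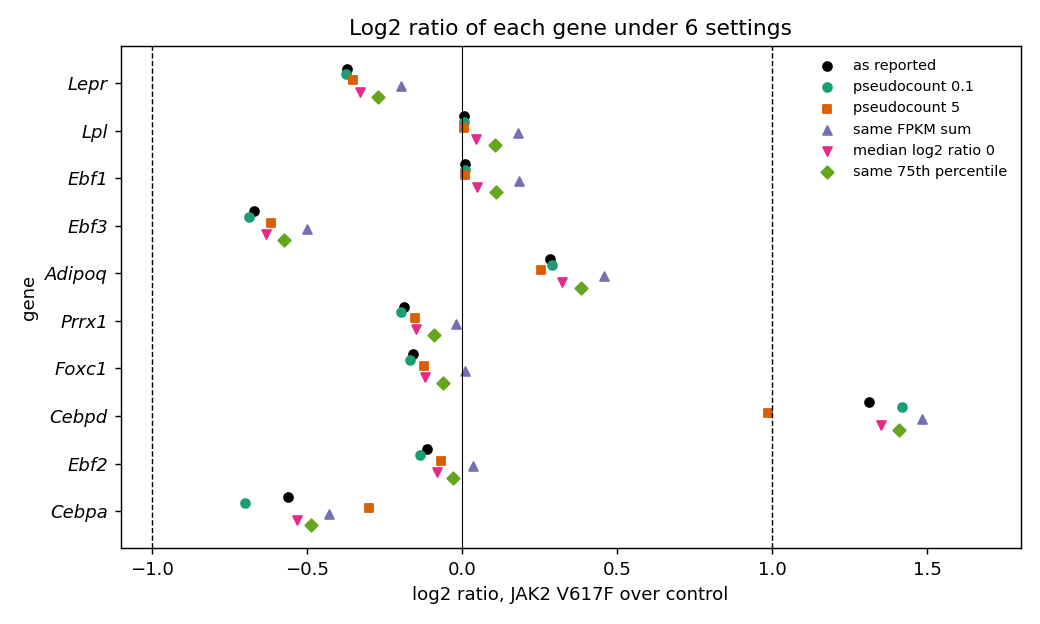
Log2 ratio of each of the 10 genes under 6 settings: as reported (pseudocount 1 FPKM, deposited scale), 2 other pseudocounts and 3 rescalings of the JAK2 V617F library. Dashed lines mark 2-fold. Cebpd is past 2-fold under all settings except a pseudocount of 5, where it is at 0.99, and Ebf2 and Foxc1 cross 0 once the FPKM sums are made equal.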

How the data were processed

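RNA of 2 to 3 ng was amplified with Ovation RNA-Seq System v2 and sequenced on a Genome Analyzer IIx, per the labels' protocols, with no molecular identifiers mentioned, so amplified copies count as fragments. Mouse build GRCm38 and the tools Bowtie2 2.0.6, TopHat2 2.0.7, Cufflinks and cutadapt 1.2.1 are named in the submitters' processing notes. The authors deposited 1 FPKM value per gene and library. Annotation release, strand setting and any scaling between libraries are not stated in those notes. Reads of a gene and of an antisense gene may thus not be told apart where their exons overlap.

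Of 35798 rows, 401 name several genes. Those, and symbols on more than 1 row, were left out, which left 31636, 20286 of them protein-coding in GENCODE vM21 or RefSeq. The log2 ratio used a pseudocount of 1 FPKM, genes were kept at 1 FPKM in at least 1 library, and calls were set at 2-fold. No test was possible with 1 library per group. Fragments were estimated from steps in the FPKM of 4404 single-transcript genes. A length offset of 160 nt, picked from 31 values for the sharpest steps, put 1 fragment at 1 kb at 0.162 FPKM in the JAK2 V617F and 0.1895 FPKM in the control library. Of the low genes used, 84.9% and 81.7% lay within 0.2 of a whole number. For the 7 members with several exons, lengths of the longest coding transcripts give about 145 (Ebf2) to 2171 (Lepr) fragments in the JAK2 V617F and 136 to 2408 in the control library. The step estimate and the call rule were tried on simulated data with counting error alone. Those data held no amplified copies or differences between animals. Their changed genes were at 5 FPKM or more and set well past 2-fold, so calls near 2-fold or of low genes were not checked.

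The members and lists were chosen with earlier results of these data known. One gene of the lipoprotein lipase list is not reported here and is left out of its counts. All members are named, and of each related list the called genes and the 4 most abundant. Python 3.11.15, pandas 2.3.3 and scipy 1.17.1 were used.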

Additional observations from a re-analysis of the deposited data

How the results depend on the processing

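Of 50 values of the 10 genes under 5 other settings each, 49 stayed on their side of 2-fold and 1 did not: Cebpd was at 0.99 with a pseudocount of 5, so 0 members were called higher there, against a background of 2.35%. That pseudocount is close to the control level of Cebpd, 6.86 FPKM. No member was called lower under any of the 7 alternatives run. The sign was the same under all 6 settings for 8 genes, and Ebf2 (0.035) and Foxc1 (0.0085) were above 0 only with both libraries at the same FPKM sum. The median log2 ratio of the 10 was -0.15 when 0.1 FPKM was added, -0.095 when 5 FPKM was added, -0.11 over members reaching 5 FPKM, 0.022 at the same FPKM sum, -0.099 with the median of all genes at 0 and -0.045 at the same 75th percentile. With 1 FPKM added to each value, the Cebpd to Cebpa ratio was 5.14 in the JAK2 V617F and 1.40 in the control library, and the Ebf1 share of the EBF sum 59.5% in the JAK2 V617F and 49.0% in the control library. The called share of all single-gene rows was 12.9% higher and 10.8% lower. No paired analysis was possible because each group has 1 library, and for the same reason no library could be left out. Depth limits Cebpd and Cebpa: about 117 fragments of Cebpd in the JAK2 V617F and 37 in the control library, and about 43 and 60 of Cebpa in the same order.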

Other observations

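Some loci of the 10 genes hold further rows. Without strand, reads cannot be told apart where exons of such a row overlap those of the host gene, and exon overlap was not examined. Within the Prrx1 locus, the antisense gene Gm20471 was at 0.342 FPKM in the JAK2 V617F library and 5.06 FPKM in the control library (log2 ratio -2.17), and AC120173.1 at 0.543 FPKM in JAK2 V617F and 2.34 FPKM in control (-1.11). Both were called lower while Prrx1 itself was at -0.19. Within the Ebf1 locus, the antisense gene Gm12158 was at 8.43 FPKM in the JAK2 V617F library and 5.30 FPKM in the control library (0.58). The 4 rows that share the Ebf2 locus were below 1 FPKM in the JAK2 V617F library, and their values in the control library ran up to 1.73 FPKM for Gm6878. These genes were chosen for their position, after the values were seen.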
